A study of Mus musculus with 4 samples.

Results

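The genes described here are the transcription factor *Nfatc1*, its relatives in the NFAT family, and the subunits and feedback regulators of calcineurin, the phosphatase that switches these factors on. The list named 10 genes, and 9 of them were among the 12693 gene symbols measured: *Nfatc1*, *Nfatc3*, *Nfatc4* and *Nfat5* (NFAT factors), *Ppp3ca*, *Ppp3cb* and *Ppp3r1* (calcineurin subunits), and *Rcan1* and *Rcan2* (regulators of calcineurin). *Nfatc2* was not analysed here. The list was chosen with the difference of *Nfatc1* between the genotypes already known, so the differences of its members are given as a description, with no test.

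According to the methods of the study, RNA was sequenced from cells sorted on the endothelial surface protein CD31 from mouse cerebral cortex at embryonic day 18. The study describes the sequencing as based on the Smart-seq2 library method. The sort, the cortex and Smart-seq2 are the study's own account. There were 2 wild-type and 2 *Foxq1* conditional knockout (cKO) samples by their labels. The strain was C57BL/6, which the methods of the study do not name. The labels name brain as the tissue and 2 µg of total RNA as the input and mention neither a sort nor the cortex, so which input these libraries had is not settled by the sources used here. In the *Foxq1* cKO embryos the floxed forkhead gene *Foxq1* was deleted with Tie2-Cre, a recombinase driven in endothelial cells (ECs) whose promoter is also active in part of the blood lineage, and the controls in this colony were littermates without Cre. Whether a sample pooled several embryos is not given in the sources used here, so the spread between the samples of a group may be technical in part. Each sample held 15827166 to 21466436 reads on listed genes.

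NFAT factors carry calcium signals to the nucleus. When receptors such as those for VEGF open calcium stores, calcium binds calmodulin, calmodulin opens calcineurin, and calcineurin removes phosphates from Nfatc1 to Nfatc4, which then enter the nucleus and act with partners such as AP-1. In ECs this route is known for the growth of heart valves, for lymphatic vessels, and for the response to VEGF and thrombin, and one of the genes it induces, *Rcan1*, encodes an inhibitor of calcineurin. Nfat5 shares the DNA-binding domain but lacks the calcineurin docking region and responds to tonicity. The values are transcript levels and say nothing of phosphatase activity or of where NFAT protein was in the cell.

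*Rcan1* is the member whose regulatory sequence is best known as a readout of NFAT: it has 2 annotated starts, and the downstream start is the one known to respond to calcineurin. Both stretches of 250 bases ahead of the starts are shown because the count of *Rcan1* sums transcripts from both. They are from RefSeq, build GRCm38.p6, minus strand, written 5′ to 3′ toward the start, with GGAAA and its reverse complement TTTCC, the core letters of an NFAT site, in capitals.
Rcan1 upstream start, chr16:92466170-92466419: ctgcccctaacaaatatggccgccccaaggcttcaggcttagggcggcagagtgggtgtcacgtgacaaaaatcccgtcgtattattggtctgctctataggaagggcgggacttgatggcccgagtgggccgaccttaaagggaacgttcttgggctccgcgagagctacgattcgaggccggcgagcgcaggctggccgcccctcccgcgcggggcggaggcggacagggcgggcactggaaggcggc
Rcan1 downstream start, chr16:92400079-92400328: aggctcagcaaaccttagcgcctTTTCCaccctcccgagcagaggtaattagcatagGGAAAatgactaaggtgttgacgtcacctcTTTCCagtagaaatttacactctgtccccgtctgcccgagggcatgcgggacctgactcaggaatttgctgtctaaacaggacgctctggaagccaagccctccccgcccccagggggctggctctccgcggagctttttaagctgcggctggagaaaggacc

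The upstream stretch of *Rcan1* held neither motif. The downstream stretch held 3, with their first bases at -227, -193 and -163 from the annotated start. Among the 32851 promoter stretches of the same length in the reference table, 55.6% held at least 1 such motif on either strand and 6.39% held at least 3. Stretches were found for 7 of the 9 measured members, 11 in all. None was found for *Nfatc1* or *Ppp3ca*, so these were not searched. Of the 11 stretches, 6 held the motif, and besides the downstream *Rcan1* stretch those of *Nfatc4* and *Ppp3cb* held at least 3. The letters GGAAA also contain the core of an ETS factor site, and a match is no evidence of binding.

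*Foxq1* itself stood at normalized counts of 353.1 and 297.1 in wild-type against 5.44 and 32.6 in *Foxq1* cKO samples, a mean of 5.84% of the wild-type mean. Endothelial markers were high in all samples, with a summed normalized count of 352998.6 and 322314.0 in wild-type against 282081.9 and 316546.8 in *Foxq1* cKO samples over 9 of 9 listed genes. This sum was lower in both *Foxq1* cKO samples and rests mainly on *Cldn5* and *Slc2a1*. *Pecam1*, *Tie1*, *Flt1*, *Erg*, *Cldn5* and *Slc2a1* were lower in both *Foxq1* cKO samples. *Cdh5* was higher in both, while *Tek* and *Kdr* overlapped between the groups. Transcripts of other cells were also present: over 5 of 7 pericyte and smooth muscle markers the sum ranged from 131249.1 to 134914.1 in wild-type and from 127302.7 to 136438.7 in *Foxq1* cKO samples, while *Acta2* and *Tagln* were not among the genes analysed. Neuron, radial glia, oligodendrocyte, erythroid and fibroblast lists had 19 of 23 markers present, with mean *Foxq1* cKO sums at 82.5% to 100.9% of wild-type. The neuron and radial glia sums were lower in both *Foxq1* cKO samples, and the other sums overlapped. The oligodendrocyte sum was 2475.6 and 1988.9 in wild-type against 1322.7 and 3182.1 in *Foxq1* cKO samples. The fibroblast sum was 2375.4 and 4594.9 against 4159.7 and 2139.3. In bulk samples, fewer cells of a type and less RNA per cell cannot be told apart.

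Of the NFAT factors, *Nfatc1* was the one whose 4 samples separated by genotype. Nfatc1 is the family member best known from endocardial and valve endothelium. Its normalized count, which is the read count divided by a size factor per sample, was 193.8 and 333.0 in wild-type against 1389.1 and 1226.8 in *Foxq1* cKO samples, from 230, 334, 1276 and 1206 reads. Both *Foxq1* cKO samples lay above both wild-type samples, and the lower *Foxq1* cKO value was 3.68 times the higher wild-type value; in 36% of all genes tested the groups did not overlap. The means were 263.4 ± 98.4 and 1308.0 ± 115 (SD, n = 2 each), a 4.97-fold ratio, and the log2 fold change was 2.36 with a standard error of 0.42. Among the 12472 genes with a mean of at least 10, 59 genes, *Nfatc1* included, had both *Foxq1* cKO values above both wild-type values by at least this factor.

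Cell types that also express *Nfatc1* can be present in such samples, so marker values stand beside this result. The 7 markers of microglia and macrophages, cells of the lineage in which Nfatc1 drives osteoclast formation, summed to 9550.3 and 10793.0 in wild-type against 6893.3 and 7456.7 in *Foxq1* cKO samples. This sum was lower in both *Foxq1* cKO samples. *Csf1r*, *C1qb* and *Cx3cr1* were lower in both *Foxq1* cKO samples, while *Aif1*, *P2ry12* and *C1qa* overlapped between the groups. The last of the 7 markers, the pan-leukocyte gene *Ptprc*, stood at 5.06 and 95.7 in wild-type against 264.5 and 59.0 in *Foxq1* cKO samples, so its groups overlapped. The part of other cells in the *Nfatc1* difference was not tested.

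*Nfatc3* and *Nfatc4*, the other calcineurin-dependent members measured, differed more between samples of a group than between groups. *Nfatc3*, a widely expressed factor known to act with Nfatc4 in patterning developing vessels, had normalized counts of 320.2 and 103.7 in wild-type against 482.3 and 46.8 in *Foxq1* cKO samples. The *Foxq1* cKO pair enclosed the wild-type pair, with a 10.3-fold ratio between its samples, and the log2 fold change was -0.27 with a standard error of 1.23. Its sign depended on the method, since DESeq2 and edgeR on the read counts each gave 0.32. *Nfatc4* had 75.0 and 250.2 in wild-type against 189.4 and 345.9 in *Foxq1* cKO samples. Its groups overlapped, and the log2 fold change was 0.90 with a standard error of 0.80.

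*Nfat5*, the tonicity-responsive member, was the factor with the highest normalized count in both wild-type samples before correction for length. Its normalized count was 1261.4 and 722.8 in wild-type against 924.3 and 1081.4 in *Foxq1* cKO samples. Both *Foxq1* cKO samples lay between the wild-type samples, and the log2 fold change was 0.07 with a standard error of 0.37. Reads on *Nfatc3* may include some from *Esrp2*, which runs on the opposite strand and shares 219 exonic bases with it in GENCODE M21, because the strand setting of the counting is not given in the sources used here.

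**Figure D1:**
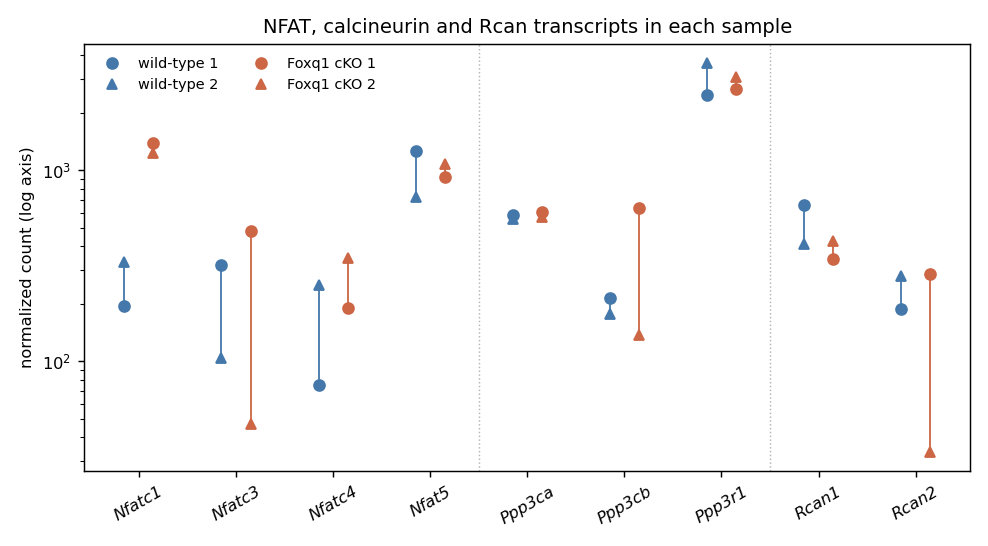
Normalized count (log axis) of each of the 9 measured members in the 4 samples, with circles for replicate 1 and triangles for replicate 2 of wild-type (blue) and *Foxq1* cKO (orange), and a line joining the samples of a group. *Nfatc1* is the member whose groups do not overlap; *Nfatc3*, *Ppp3cb* and *Rcan2* show long lines within the *Foxq1* cKO group.

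Levels of different genes were compared as normalized count per kb of exonic length. In wild-type samples the mean level per kb was 54.0 for *Nfat5*, 35.3 for *Nfatc1*, 28.0 for *Nfatc4* and 18.1 for *Nfatc3*. The per-kb values of neighbours in this order overlapped between the 2 wild-type samples: *Nfat5* ranged from 39.3 to 68.6, *Nfatc1* from 25.9 to 44.6, *Nfatc4* from 12.9 to 43.1 and *Nfatc3* from 8.84 to 27.3. In *Foxq1* cKO samples the order was *Nfatc1* (175.1), *Nfat5* (54.6), *Nfatc4* (46.1) and *Nfatc3* (22.6), and *Nfatc1*, at 164.3 and 186.0 per kb, lay above every other factor in both samples.

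The summed level of the 4 NFAT factors was 134.8 and 135.8 per kb in wild-type against 310.0 and 286.6 per kb in *Foxq1* cKO samples. *Nfatc1* made up 19.2% and 32.8% of this sum in wild-type against 60% and 57.3% in *Foxq1* cKO samples. Without *Nfatc1* the sum was 108.9 and 91.3 per kb in wild-type against 124.0 and 122.4 per kb in *Foxq1* cKO samples, so the other factors together were slightly higher in both *Foxq1* cKO samples.

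**Figure D2:**
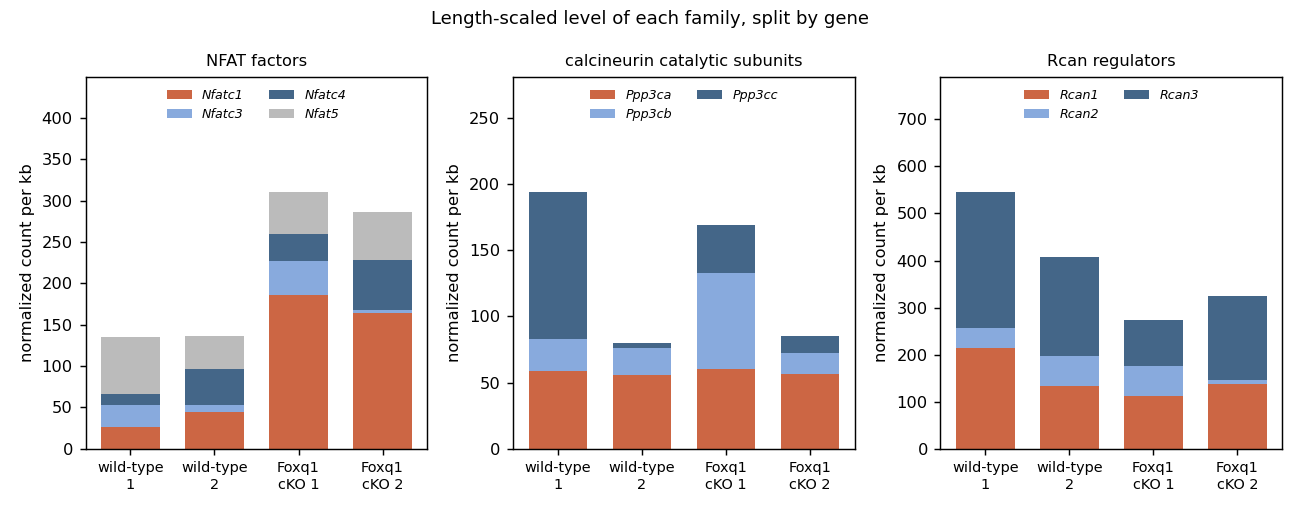
Stacked normalized counts per kb of exonic length in each sample for the NFAT factors, the calcineurin catalytic subunits and the Rcan regulators, 1 bar per sample starting at 0 and 1 colour per gene. The NFAT bars reach 310.0 and 286.6 in *Foxq1* cKO against 134.8 and 135.8 in wild-type samples, and the *Nfatc1* segment holds most of that difference.

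Calcineurin itself is a heterodimer of a catalytic and a regulatory subunit. *Ppp3ca*, which encodes catalytic subunit A alpha, was the steadiest member: 584.8 and 557.3 in wild-type against 603.1 and 566.6 in *Foxq1* cKO samples. The 4 values lay within a narrow band, and the log2 fold change was 0.03 with a standard error of 0.35. *Ppp3cb*, for the A beta subunit, had 214.0 and 177.5 in wild-type against 635.8 and 137.3 in *Foxq1* cKO samples. The higher *Foxq1* cKO value came from replicate 1 alone, the groups overlapped, and the log2 fold change was 0.60 with a standard error of 0.83. Without that library it was -0.50.

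*Ppp3r1*, which encodes the regulatory B subunit that binds calcium, had 2477.3 and 3631.9 in wild-type against 2653.0 and 3095.6 in *Foxq1* cKO samples. The *Foxq1* cKO samples lay between the wild-type samples, and the log2 fold change was -0.07 with a standard error of 0.25. Per kb it stood at a mean of 946.3 in wild-type and 890.4 in *Foxq1* cKO samples, against 57.2 and 58.6 for *Ppp3ca* and 22.2 and 43.9 for *Ppp3cb*. The gene *Wdr92* overlaps *Ppp3r1* on the same strand over 462 exonic bases, so reads there could belong to either. *Ppp3cc*, the remaining catalytic subunit, is no member of the list but completes the family: it had 331.2 and 11.0 in wild-type against 107.8 and 38.7 in *Foxq1* cKO samples, a 30.2-fold ratio within the wild-type group. Through *Ppp3cc* and *Ppp3cb*, the summed catalytic level per kb was 193.8 and 79.7 in wild-type against 168.7 and 85.3 in *Foxq1* cKO samples, with groups that overlapped.

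The Rcan proteins bind calcineurin and, when abundant, inhibit it. *Rcan1* had normalized counts of 658.1 and 410.7 in wild-type against 342.9 and 427.3 in *Foxq1* cKO samples. The second *Foxq1* cKO sample lay within the wild-type range, and the log2 fold change was -0.44 with a standard error of 0.45. The transcripts from the downstream start with its 3 NFAT core motifs cannot be separated in gene-level counts, so that form was not measured by itself. *Rcan2* had 187.1 and 279.1 in wild-type against 287.4 and 33.6 in *Foxq1* cKO samples. The low value was that of replicate 2 alone. The log2 fold change was -1.20 with a standard error of 1.09, and 0.33 without that sample.

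*Rcan3*, outside the member list, had the highest level per kb of the Rcan genes in wild-type samples, 53% and 51.6% of their sum. Its normalized count was 1476.3 and 1071.7 in wild-type against 500.8 and 914.5 in *Foxq1* cKO samples, lower in both *Foxq1* cKO samples, with a log2 fold change of -0.89 and a standard error of 0.40 (limma, unadjusted p = 0.0661, adjusted p = 0.857). The summed Rcan level per kb was 544.9 and 406.7 in wild-type against 274.9 and 325.1 in *Foxq1* cKO samples, lower in both *Foxq1* cKO samples; the sum rests mainly on *Rcan1* and *Rcan3*.

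The spread between samples of a group varied widely among the members. Among the 4282 genes with a mean normalized count of 100 to 500, the median ratio of the higher to the lower sample was 1.69 in wild-type and 1.498 in *Foxq1* cKO. The *Foxq1* cKO ratios of *Nfatc3* (10.3), *Rcan2* (8.56) and *Ppp3cb* (4.63) were reached by 2.36%, 2.92% and 5.96% of these genes. *Nfatc1*, whose mean is above that range, had ratios of 1.72 and 1.13, against medians of 1.44 and 1.33 over all genes tested. Leaving out 1 sample at a time gave *Nfatc1* a log2 fold change between 1.97 and 2.75, *Nfatc4* between 0.033 and 1.76 and *Rcan1* between -0.78 and -0.10, while the other 6 members changed sign.

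**Figure D3:**
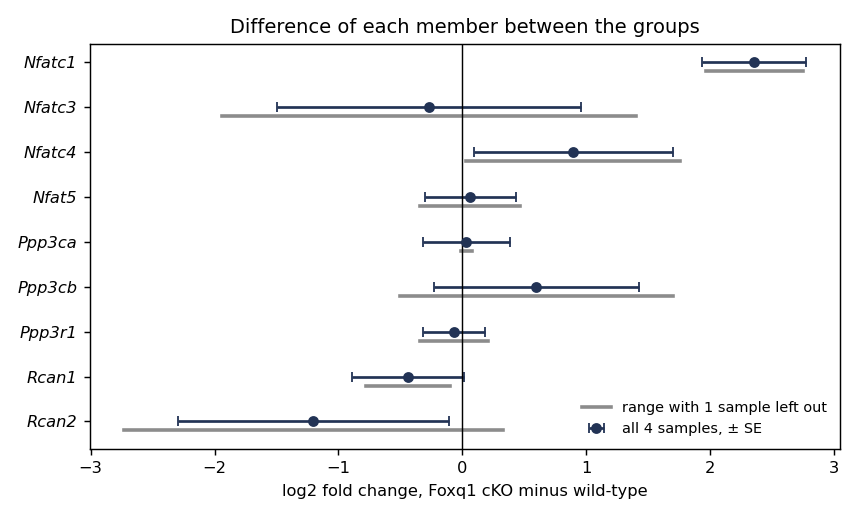
Log2 fold change (*Foxq1* cKO minus wild-type) of each member: points with bars give the value and its standard error with all 4 samples, and grey lines give the range when 1 sample is left out. *Nfatc1* stays between 1.97 and 2.75; the grey lines of *Nfatc3*, *Nfat5*, *Ppp3ca*, *Ppp3cb*, *Ppp3r1* and *Rcan2* cross 0.

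For scale, limma called 5.22% of the 12472 genes tested at an unadjusted p under 0.05 (651 genes: 271 or 2.17% higher and 380 or 3.05% lower in *Foxq1* cKO) and none after Benjamini-Hochberg adjustment, with a smallest adjusted p of 0.857. Among the 9 members, 1 had an unadjusted p under 0.05 and 1 had groups that did not overlap, *Nfatc1* in each case, and the median log2 fold change was 0.03 against 0.01 over all genes. DESeq2 on the read counts called 0.498% of 12446 genes at an adjusted p under 0.05, and edgeR called none (632 genes at an unadjusted p under 0.05). Since the members were selected on this contrast, nothing is read from their counts.

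The wider pathway was followed in 8 lists by role, 91 genes of which 72 were measured. The lists came from textbook knowledge of the pathway but were drawn up with earlier results of these data known. The p-values of their genes are therefore given as a description. In limma 2 of the 72 were higher and 3 were lower at an unadjusted p under 0.05, none after adjustment, which is 6.94% against 5.22% of all genes. Groups did not overlap for 28 of the 72, or 38.9% against 36% of all genes, and the median log2 fold change was -0.06. The count of 5 depended on single libraries, and so did the count over all genes tested.

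Upstream of calcineurin, the gene that stood out was *Stim1*, the sensor of calcium in the endoplasmic reticulum that opens the store-operated channel Orai1. Its normalized count was 48.9 and 94.7 in wild-type against 512.8 and 577.8 in *Foxq1* cKO samples. Both *Foxq1* cKO values lay above both wild-type values, by at least 5.41 times. The log2 fold change was 2.98 with a standard error of 0.64 (limma, unadjusted p = 0.00331, adjusted p = 0.857; DESeq2, adjusted p = 0.00295). Of the 10 alternatives that kept the 4 samples, DESeq2 alone gave *Stim1* an adjusted p under 0.05. In the others the adjusted p ran from 0.824 (limma with the replicate number as a block) to 0.937 (edgeR). The log2 fold change was at least 2.88 in each of the 10.

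The partners of *Stim1* gave smaller differences. *Stim2*, the related sensor, had 583.9 and 260.2 in wild-type against 557.4 and 501.5 in *Foxq1* cKO samples, and its groups overlapped. *Orai1*, the channel pore, had 308.4 and 219.3 in wild-type against 170.9 and 253.3 in *Foxq1* cKO samples, again with overlap. *Orai3*, a related channel, had 392.7 and 351.9 in wild-type against 387.6 and 408.9 in *Foxq1* cKO samples. *Stim2*, *Orai1* and *Orai3* were named after their values were seen, as were *Rcan3* and *Ppp3cc*. The genes of this list with the highest means were *Saraf*, which shuts store-operated entry off, at 6521.9 and 5549.0 in wild-type against 7142.7 and 6442.4 in *Foxq1* cKO samples, and *Itpr2*, a calcium release channel of the endoplasmic reticulum. *Itpr2* was lower in both *Foxq1* cKO samples, 2352.6 and 2732.4 against 3319.9 and 3048.7, with a log2 fold change of -0.33 and a standard error of 0.19 (limma, unadjusted p = 0.143). *Itpr1*, a channel of the same family named after its values were seen, was higher in both *Foxq1* cKO samples, 1660.2 and 1453.7 against 1205.0 and 1162.4, with a log2 fold change of 0.39 and a standard error of 0.25 (limma, unadjusted p = 0.162). Of the 14 measured genes of this list 1 passed the unadjusted threshold, or 7.14% against 5.22% of all genes tested. The list's median log2 fold change was -0.17.

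The 10 measured subunits, regulators and binding proteins of calcineurin outside the member list had a median log2 fold change of 0.00. *Ppia*, the gene of this list with the highest mean, encodes the cyclophilin through which cyclosporin blocks calcineurin. Its normalized count was 44292.5 and 43031.2 in wild-type against 45404.4 and 47112.4 in *Foxq1* cKO samples. Both *Foxq1* cKO values were higher by a small step, with a log2 fold change of 0.08 and a standard error of 0.09 (limma, unadjusted p = 0.391). Cyclophilin genes have processed copies in the genome, and how the counting treated reads that match several places is not given in the sources used here.

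Kinases that put phosphates back on NFAT, and scaffolds that hold it, gave 1 of 14 past the unadjusted threshold. That is 7.14%, against 5.22% of all genes tested. *Mapk9*, the stress kinase JNK2, had 314.3 and 445.6 in wild-type against 755.5 and 757.9 in *Foxq1* cKO samples. It was higher in both *Foxq1* cKO samples, with a log2 fold change of 1.01 and a standard error of 0.39 (limma, unadjusted p = 0.0417, adjusted p = 0.857). *Csnk1a1* and *Gsk3b*, the kinases of the list with the highest means, overlapped between the groups, with log2 fold changes of -0.19 and -0.09. The list's median was -0.01.

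None of the 10 measured AP-1 and MEF2 partners passed, and the median was 0.00. *Jun* had 24488.3 and 24162.0 in wild-type against 25478.8 and 25942.7 in *Foxq1* cKO samples, and *Fos* had 22928.6 and 18837.3 against 16658.6 and 17147.3. *Fos* was lower in both *Foxq1* cKO samples, with a log2 fold change of -0.30 and a standard error of 0.13 (limma, unadjusted p = 0.0673). None of the 7 measured calcineurin substrates other than NFAT passed either, and *Crtc1*, a coactivator of CREB, and *Dnm1l*, the mitochondrial fission GTPase that calcineurin activates, overlapped between groups.

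**Figure D4:**
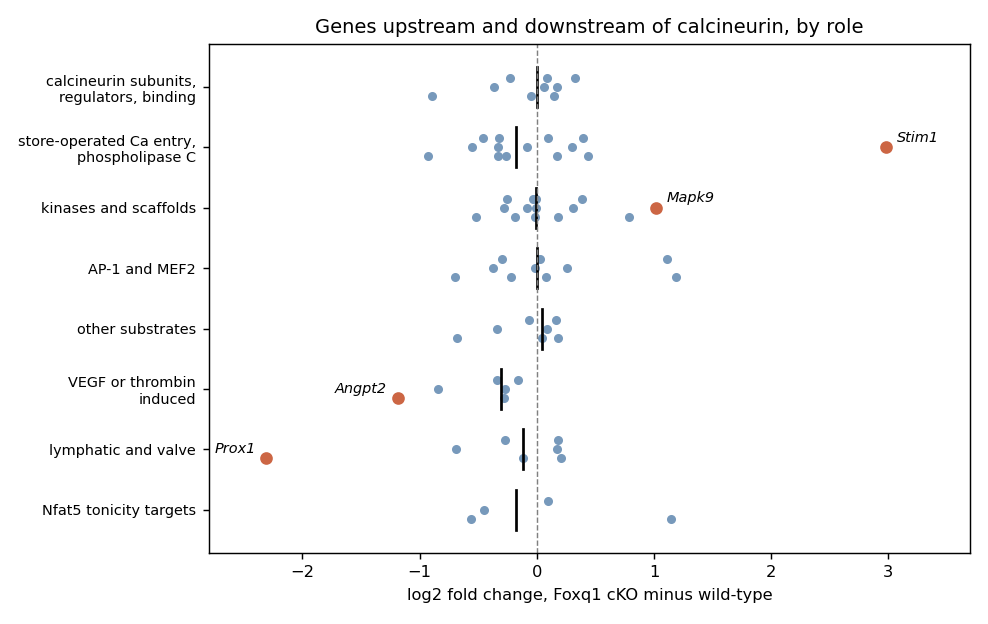
Log2 fold change (*Foxq1* cKO minus wild-type) of the measured pathway genes reported here, 1 point per gene, in 8 rows by role with the median of each list as a black line; orange points with names had an unadjusted limma p under 0.05. *Stim1* and *Mapk9* lie to the right of 0, *Prox1* and *Angpt2* to the left, and the medians lie between -0.31 and 0.04.

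Downstream, 6 genes known to be induced through calcineurin-NFAT in ECs after VEGF or thrombin were measured. The fitted log2 fold change of each was below 0, from -1.19 to -0.16. Its median was -0.31, against 0.01 over all genes tested. For *Ackr3*, named after its values were seen, the groups overlapped, with 137.3 and 131.6 in wild-type against 192.7 and 64.1 in *Foxq1* cKO samples. The unadjusted threshold was passed by 1 of the 6 (5.22% of all genes tested), and the groups did not overlap in 3 of the 6 (36% of all genes tested). The other 6 genes of this list of 12 were not analysed here. *Angpt2*, the antagonist ligand of the Tie2 receptor, had 1823.4 and 1085.7 in wild-type against 544.3 and 700.9 in *Foxq1* cKO samples. Both *Foxq1* cKO values were lower, with a log2 fold change of -1.19 and a standard error of 0.37 (limma, unadjusted p = 0.0179, adjusted p = 0.857). *Adamts1*, a secreted protease and the gene of this list with the highest mean, had 2224.5 and 2383.7 against 2251.3 and 1892.1, with overlap. *Nr4a2* and *Vcam1*, chosen after their values were seen as the other genes without overlap, were at 492.1 and 389.8 against 256.9 and 231.9, and at 1002.7 and 889.3 against 727.2 and 833.2.

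Among 7 measured lymphatic and valve endothelial genes studied with *Nfatc1*, 1 passed the unadjusted threshold (14.3%, against 5.22% of all genes tested). *Prox1*, the master regulator of lymphatic identity, which neural progenitors also express, had 430.6 and 350.9 in wild-type against 49.0 and 123.1 in *Foxq1* cKO samples. Both *Foxq1* cKO values were lower, with a log2 fold change of -2.31 and a standard error of 0.71 (limma, unadjusted p = 0.0173, adjusted p = 0.857). Beside it, the 5 radial glia and astrocyte markers summed to 20314.0 and 19239.1 in wild-type against 16639.0 and 16009.0 in *Foxq1* cKO samples, with no common direction: *Gfap* and *Slc1a3* were lower and *Aqp4* was higher in both *Foxq1* cKO samples, while *Fabp7* and *Aldh1l1* overlapped. *Gfap* stood at 3073.0 and 2419.6 against 1081.0 and 1328.6, and *Aqp4* at 1550.4 and 1677.9 against 1845.3 and 1694.8. Their part in the *Prox1* difference was not tested. *Flt4*, the receptor for VEGF-C, and *Gja4*, encoding connexin 37, were lower in both *Foxq1* cKO samples with log2 fold changes of -0.27 and -0.12 and standard errors of 0.22 and 0.15. *Pdpn*, encoding the lymphatic surface protein podoplanin and named after its values were seen, was higher in both *Foxq1* cKO samples, 360.3 and 341.8 against 295.8 and 325.0, with a log2 fold change of 0.18 and a standard error of 0.46. *Gata2* and *Vegfc* overlapped between groups, and the median of the list was -0.12.

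The 4 measured tonicity targets of Nfat5 gave none past the threshold. *Slc6a6*, the taurine transporter, had the highest mean, at 21238.3 and 14142.7 in wild-type against 11755.3 and 13662.1 in *Foxq1* cKO samples, a log2 fold change of -0.45 with a standard error of 0.21 (limma, unadjusted p = 0.0760). *Slc5a3*, the myo-inositol transporter, overlapped between groups.

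The genes whose pattern over the 4 samples was most like that of *Nfatc1* were sought among 11402 genes with a mean of at least 50, by the root mean square distance between log2 values centred on each gene's mean. They were *Zfp933* (distance 0.17), *Txnrd1* (0.17), *Zfp626* (0.20), *Cd1d2* (0.27) and *Plekha3* (0.28). *Txnrd1*, the cytosolic thioredoxin reductase, had 141.6 and 279.1 in wild-type against 840.4 and 830.1 in *Foxq1* cKO samples, close to *Nfatc1* in both the step between the groups and the lower value of wild-type replicate 1. *Zfp933* and *Zfp626* encode zinc finger proteins and had lower counts, 37.1 and 79.8 against 251.5 and 221.8, and 40.5 and 87.7 against 381.0 and 242.1. *Stim1* was at place 16 in this order, with a distance of 0.34. No other member of the list was near: the closest was *Nfatc4* at place 790, and *Rcan2* was farthest at place 10896. These places describe 4 samples and carry no test.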

How the data were processed

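The groups of 2 wild-type and 2 *Foxq1* cKO libraries follow the sample labels; the CD31 sort of cortical cells is described in the methods of the study only. The authors deposited a normalized signal per gene; multiplied by a size factor per sample, 100% of the values came out as whole reads within 0.01 read, and they are called normalized counts here. The submitters' processing notes name TopHat2 2.0.12, Bowtie2 2.2.3, HTSeq 0.6.0 and mm9; the annotation, strand setting and normalization tool are not given in the sources used here. Repeated lines were collapsed to 12693 symbols. Every listed gene had at least 1 read in each sample, so a complete loss could not be measured.

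log2(value + 1) was fitted for genes averaging at least 10 with limma 3.58.1 (lmFit, eBayes with trend; R 4.3.3) with Benjamini-Hochberg adjustment; DESeq2 1.42.0 and edgeR 4.0.16 on the recovered reads were alternatives. With 2 against 2, an exact two-sided permutation test of 1 gene cannot go below 0.333. The members and lists were chosen with earlier results of these data known. Named were all members, the list genes with an unadjusted p under 0.05 or among the 2 highest means of their list, and the 5 genes most like *Nfatc1*; 1 pathway gene is not reported here. Exonic lengths came from GENCODE M21. The fits were tested on simulated data.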

Additional observations from a re-analysis of the deposited data

How the results depend on the processing

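The log2 fold change of *Nfatc1* stayed between 2.31 and 2.36 under the 10 alternatives that kept the 4 samples (pseudocounts, filters, scalings, tools and the replicate block). Over the 9 members, 88 of 90 such results kept their sign and shifted by less than the SD within groups. The exceptions were *Nfatc3* under DESeq2 and under edgeR, 0.32 each against -0.27. They changed sign but not their side of the unadjusted threshold, and the cause was not tested. The SD is that of the gene itself, so a member with a wide spread could shift far within it. Under these alternatives *Rcan2* ran from -1.32 to -0.54 and *Ppp3cb* from 0.55 to 0.98. Genes with an adjusted p under 0.05 numbered 0 in limma and 62 in DESeq2. Pathway genes with an unadjusted p under 0.05 numbered 5 in limma and 8 in DESeq2. Over all genes the same counts were 651 in limma and 824 in DESeq2, so both rose with the tool.

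With 1 sample left out (the lone sample of a group is then assumed to vary like the other group), genes with an unadjusted p under 0.05 numbered 276 (without *Foxq1* cKO replicate 1) to 1569 (without wild-type replicate 2), pathway genes 2 to 13 and members 1 to 2. The log2 fold change ranged from -1.94 to 1.40 for *Nfatc3*, -0.34 to 0.47 for *Nfat5*, -0.011 to 0.079 for *Ppp3ca*, -0.50 to 1.70 for *Ppp3cb*, -0.34 to 0.21 for *Ppp3r1* and -2.73 to 0.33 for *Rcan2*.

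The replicate numbers 1 and 2 occur in both groups. With the replicate block, 693 genes had an unadjusted p under 0.05 against 651 without it, and none an adjusted p under 0.05; over genes, deviations of same-numbered samples correlated at 0.0325, so the numbers were not taken to pair the samples. With 2 samples a group, differences like those of *Nfatc4*, *Rcan1* and *Rcan2* lie within the spread between samples.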
